A study of Mus musculus with 12 samples.

Results

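Messenger RNA of 10 zinc-handling genes was followed in MIN6 cells, a line derived from a mouse insulinoma, across 4 conditions. The genes were taken by name from the gene tables, and all 10 were found among the 54022 genes listed. They are 5 zinc transporters of the Slc30a family (Slc30a1, Slc30a5, Slc30a7, Slc30a8 and Slc30a9), 3 zinc importers of the Slc39a family (Slc39a6, Slc39a7 and Slc39a10) and the metallothioneins Mt1 and Mt2. Cells received vehicle or 100 nM trimethylamine N-oxide (TMAO), a product of gut microbial choline metabolism that is oxidised in the liver, for 18 h. The cells were then stimulated with low or high glucose, for a time not given for these cultures in the sources used here, giving low glucose with vehicle, low glucose with TMAO, high glucose with vehicle and high glucose with TMAO, with 3 biological replicates each. All 4 groups were the same cell line, so none of them represents primary islet cells, and changes of RNA per cell cannot be told apart from changes in the make-up of a culture.

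Zinc is imported into the cytosol by the Slc39a (ZIP) proteins. Most Slc30a (ZnT) proteins remove it from the cytosol, out of the cell or into organelles. Pancreatic beta cells concentrate zinc in their secretory granules, where it crystallises with insulin, and the granule transporter is ZnT8, the product of Slc30a8. Metallothioneins are small cysteine-rich proteins that bind zinc in the cytosol. Their genes are switched on by free zinc through the factor MTF1, which binds short metal response elements in their promoters.

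Library totals ran from 16793162 to 22340542 fragments assigned to genes, and 30981 genes had at least 1 fragment. Of these, 16222 passed a filter on low counts and were tested, all 10 zinc genes among them. All 10 beta-cell markers examined, including Ins1, Ins2 and Pdx1, had at least 10 FPKM (fragments scaled to gene length and to library size) in every library. Among 6 markers of other islet cells, the glucagon gene Gcg stood at 199.6 to 227.4 FPKM and 4 were under 1 FPKM throughout, as were all 7 markers of stroma and blood and 4 of 5 exocrine markers.

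Slc30a8 and Mt1 were by far the most abundant of the 10 messages, and Slc30a1 was barely expressed. On the FPKM scale, Slc30a8 averaged 264.7 ± 11.1 (SD over 12 libraries) and Mt1 averaged 252.1 ± 17.1. Only 92 and 98 of the tested genes, respectively, had a higher mean. The ranges of these 2 genes overlapped, from 246 to 278 FPKM for Slc30a8 and from 219 to 277 FPKM for Mt1. A 9.04-fold step in mean FPKM separated Mt1 from the next gene, Slc39a6. The gene length used for Mt1, 1246 bases, equals its whole span from first to last base. For Slc30a8 and Mt2 the lengths used, 1971 and 588 bases, were shorter than their spans. FPKM may therefore understate Mt1, so its order against Slc30a8 and the size of this step are uncertain.

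The remaining members formed a graded series. Slc39a6 averaged 27.9 ± 1.16 FPKM, Mt2 21.4 ± 1.57 and Slc30a5 12.8 ± 0.472, and the ranges of these neighbours did not overlap. Slc39a10 (6.28 ± 0.423) and Slc30a9 (5.97 ± 0.241) overlapped each other. So did Slc39a7 (4.32 ± 0.471) and Slc30a7 (3.62 ± 0.18). Slc30a1, which encodes the ZnT1 exporter of the plasma membrane, was lowest at 0.298 ± 0.047 FPKM, 12.2-fold below Slc30a7 and with 14995 tested genes above it. Its values rested on 18 to 43 fragments per library, and 8.01% of the 50-base stretches of its transcripts also occur in the antisense gene 1700034H15Rik, on which a mean of 3.08 fragments was counted, so its level is uncertain.

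**Figure D1:**
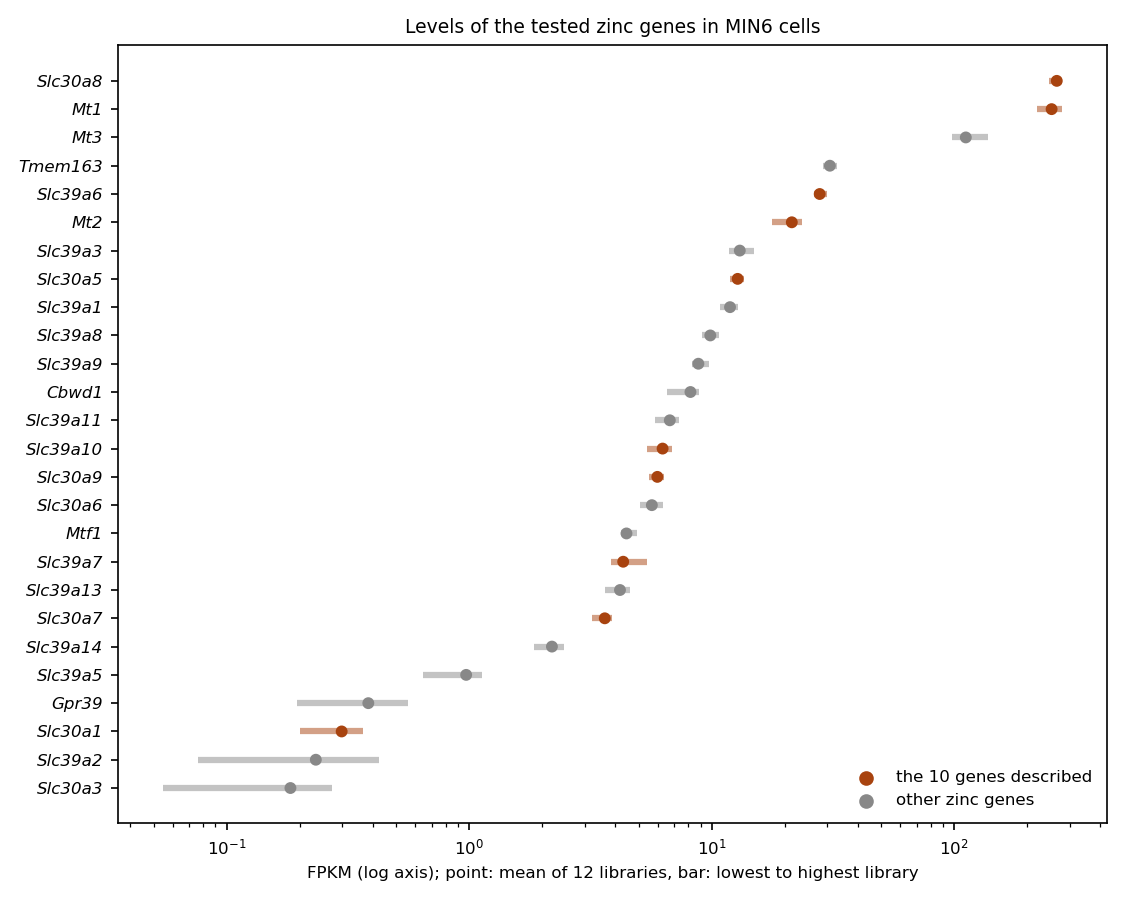
Mean FPKM over 12 libraries (points, log axis) and the range from the lowest to the highest library (bars) for the 10 genes described and 16 other tested zinc genes. Slc30a8 and Mt1 lie highest at 264.7 and 252.1 FPKM, and Slc30a1 lies near the bottom at 0.298 FPKM.

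The families differed in how evenly their genes shared the sum. Slc30a8 made up between 89.6% and 90.8% of the summed FPKM of the 10 Slc30a genes in every library. Slc30a5, the transporter of the early secretory pathway, held a median of 4.43%, Slc30a9, a mitochondrial zinc transporter, 2.05% and the Golgi transporter Slc30a7 1.24%. The importers were spread more evenly. Slc39a6, encoding the plasma membrane importer ZIP6, had the largest share at 27.1% to 30.5% of the 14 Slc39a genes, while its relative Slc39a10 held a median of 6.51% and Slc39a7, which releases zinc from the endoplasmic reticulum, 4.28%. Mt1 made up 62.1% to 69.0% of the 4 metallothioneins, Mt3, a form best known from neurons, 25.3% to 33.5%, and Mt2 4.31% to 6.38%. These metallothionein shares depend on the gene length used for Mt1 and are uncertain. No fragment was counted on Mt4 or Slc30a4 in any library, so each was at or below 3 counts, or 0.134 to 0.179 CPM (counts scaled to library size); this limit covers counting error only.

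**Figure D2:**
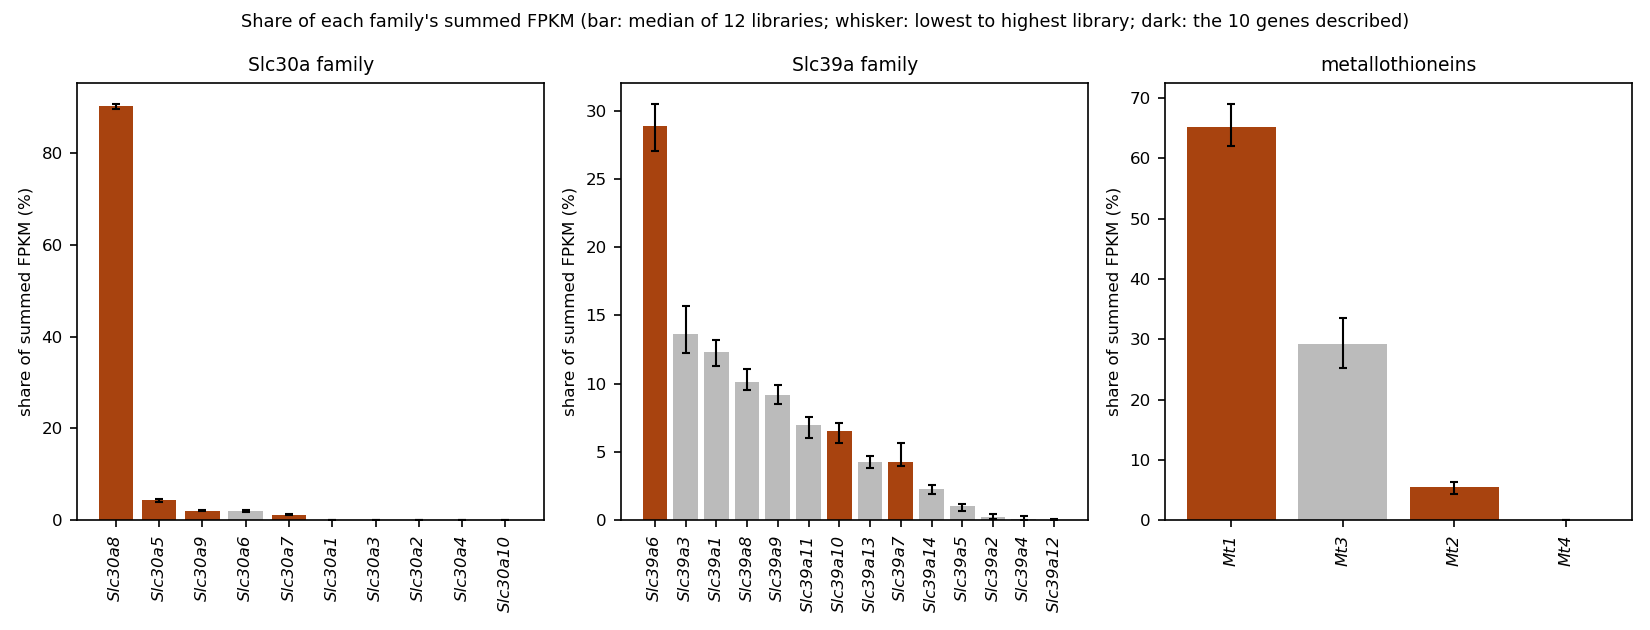
Median share of each gene in the summed FPKM of its family over 12 libraries, with whiskers from the lowest to the highest library, for the Slc30a genes, the Slc39a genes and the metallothioneins. Slc30a8 holds most of the Slc30a sum with a median of 90.4%, while the largest Slc39a share is 28.9%.

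Mt1 and Mt2 are neighbours on chromosome 8 of the mm10 build. Mt2 (ENSMUSG00000031762) lies at chr8:94172664-94173568 and Mt1 (ENSMUSG00000031765) at chr8:94179082-94180327, both on the plus strand and 5513 bases apart. Slc30a1 (ENSMUSG00000037434) lies at chr1:191906767-191913247 on the plus strand. RefSeq start windows on GRCm38.p6, running from 250 bases before to 50 bases after each annotated start, were found for 8 of the 10 genes (all but Slc30a8 and Slc39a6). There were 9 windows, since Slc39a10 had 2, chr1:46925727-46926026 and chr1:46853569-46853868. Neither covers the 5′ end of its gene at 46892852. RefSeq starts can differ from the gene coordinates given here: the Mt2 window ends at 94172667, just past the gene's first base, 94172664. The windows were searched on both strands for the core of the metal response element, written TGCACNC or TGCGCNC, and for the cyclic AMP response element TGACGTCA. The 3 windows with at least 2 metal response cores are shown 5′ to 3′ along the gene, with each core in capitals. A core matched on the opposite strand appears as its reverse complement.
Mt2 (chr8:94172368-94172667, plus strand): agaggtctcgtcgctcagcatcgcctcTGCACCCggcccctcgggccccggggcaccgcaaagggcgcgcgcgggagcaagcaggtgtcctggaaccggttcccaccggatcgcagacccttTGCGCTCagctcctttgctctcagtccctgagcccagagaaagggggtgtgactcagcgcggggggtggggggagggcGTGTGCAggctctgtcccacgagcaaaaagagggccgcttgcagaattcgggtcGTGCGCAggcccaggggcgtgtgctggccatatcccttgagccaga
Mt1 (chr8:94178839-94179138, plus strand): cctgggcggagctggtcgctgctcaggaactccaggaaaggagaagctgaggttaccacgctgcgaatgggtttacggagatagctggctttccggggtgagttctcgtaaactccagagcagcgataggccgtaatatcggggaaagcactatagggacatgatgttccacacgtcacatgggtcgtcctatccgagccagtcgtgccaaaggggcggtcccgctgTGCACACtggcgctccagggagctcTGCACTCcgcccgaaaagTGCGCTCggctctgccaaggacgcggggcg
Slc30a1 (chr1:191906531-191906830, plus strand): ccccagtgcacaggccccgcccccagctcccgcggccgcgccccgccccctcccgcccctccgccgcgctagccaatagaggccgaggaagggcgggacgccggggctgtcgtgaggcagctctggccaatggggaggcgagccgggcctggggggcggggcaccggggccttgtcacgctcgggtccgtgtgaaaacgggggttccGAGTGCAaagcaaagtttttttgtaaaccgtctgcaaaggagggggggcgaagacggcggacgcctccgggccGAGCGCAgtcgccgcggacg

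Mt2 held 4 cores, Mt1 3, Slc30a1 2 and Slc30a5 1. The windows of the other 4 genes held none of these letters, and those of Slc39a10 did not cover the 5′ end of its gene. Of 32851 RefSeq windows of the same length, 25.7% had at least 1 core, 7.11% at least 2, 1.97% at least 3 and 0.517% at least 4. In Mt1 the first bases of the cores were at -23, 2 and 20 relative to the RefSeq start, and in Mt2 at -223, -128, -50 and 4. The Mt2 core at 4 lies before the first base of the Mt2 gene coordinates given above. No window of these genes contained TGACGTCA, which was present in 1.79% of all windows. These matches describe letters only, and binding was not measured.

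**Figure D3:**
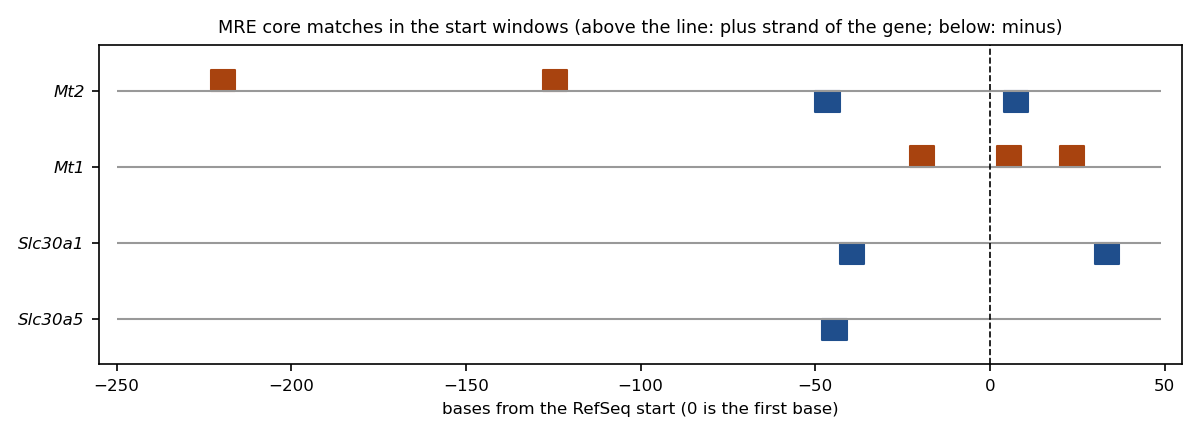
Positions of metal response cores relative to the RefSeq start (0, dashed line) in the windows of Mt2, Mt1, Slc30a1 and Slc30a5, with boxes above the line for the gene's own strand and below it for the opposite strand. The 3 cores of Mt1 all lie within 30 bases of the start, and the 4 of Mt2 reach back to -223.

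The first comparison asked whether high glucose changed these messages. Mt1 was the only one of the 10 that passed the test for glucose averaged over treatments, in which 8.19% of all tested genes were called, and it rose modestly. Averaged over vehicle and TMAO, Mt1 was 10.4% higher in high glucose (95% interval 4.93% to 16.1%). The granule transporter gene Slc30a8 and the importer gene Slc39a6 were 5.5% and 5.64% higher but did not pass.

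In low glucose with vehicle, Mt1 stood at 230.2, 241.6 and 238.8 FPKM, and in high glucose with vehicle at 256.5, 277.0 and 258.9 FPKM. With TMAO, the values were 248.6, 260.1 and 219.5 FPKM in low glucose and 271.8, 255.3 and 266.6 FPKM in high glucose. The vehicle groups did not overlap, whereas with TMAO the second low-glucose culture lay above the second high-glucose culture and the third low-glucose culture was the lowest of all 12. The log2 fold change averaged over treatments was 0.14 (SE 0.036, edgeR adjusted p = 0.00867). The same comparison gave 0.16 (SE 0.05, adjusted p = 0.0862) with vehicle and 0.12 (SE 0.05, adjusted p = 0.21) with TMAO, neither of which passed. The value with TMAO depended on single cultures: it was 0.057 without the third low-glucose culture and 0.18 without the second. In the averaged comparison another 2 members, Slc30a8 and Slc39a6, had an unadjusted p under 0.05, as did 20.1% of all tested genes, and DESeq2 also called 1 member.

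Levels of marker genes were compared across the same libraries, without a test. The summed FPKM of the 10 beta-cell markers ranged from 40973 to 46650 in low glucose and from 45330 to 48488 in high glucose, and these ranges overlapped. With TMAO alone they overlapped too. With vehicle alone they did not, at 41942.8 to 45533.9 in low and 45664.5 to 47269.3 in high glucose. Ins2 and Iapp, with medians of 25704.9 and 12081.7 FPKM, were the largest parts of this sum. The summed FPKM of the other islet markers, nearly all of it Gcg, ranged from 200.7 to 218.4 in low glucose and from 224.2 to 229.6 in high glucose, with no overlap. Their part in the Mt1 difference was not tested.

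Mt2, whose product is a near relative of Mt1, did not pass. Its FPKM was 23.2, 20.8 and 22.1 in low glucose with vehicle, 21.7, 20.1 and 21.5 in low glucose with TMAO, 17.8, 22.5 and 20.1 in high glucose with vehicle and 21.2, 23.6 and 21.95 in high glucose with TMAO. All groups overlapped, and the averaged glucose log2 fold change was -0.024 with a 95% interval of -0.17 to 0.12. The ratio of Mt1 to Mt2 FPKM averaged 10.8 ± 0.854 (SD, n = 3) in low glucose with vehicle and 13.2 ± 1.1 in high glucose with vehicle. With TMAO it averaged 11.5 ± 1.36 in low and 11.9 ± 1.01 in high glucose. The level of this ratio depends on the gene lengths used, which for Mt1 was its whole span. Whether Mt1 and Mt2 responded differently was not tested. Mt2 shares 749 bases with the antisense gene Gm45774, on which a mean of 53.2 fragments was counted against 239 on Mt2, and 45.8% of the 50-base stretches of its transcripts occur there too. The library kit does not mark strand, so reads of the 2 genes cannot be told apart there and the Mt2 level is uncertain.

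Slc30a8 (ENSMUSG00000022315, chr15:52295553-52335798, plus strand) stood at 246.4, 258.6 and 265.7 FPKM in low glucose with vehicle and at 265.2, 277.4 and 273.8 FPKM in high glucose with vehicle. With TMAO its values were 246.1, 271.2 and 258.9 FPKM in low glucose and 260.0, 275.4 and 278.3 FPKM in high glucose. The glucose groups overlapped with either treatment, and the highest single values came from high glucose. The averaged glucose log2 fold change was 0.077 (SE 0.031, edgeR adjusted p = 0.137), with a 95% interval of 0.014 to 0.14.

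Slc39a6 (ENSMUSG00000024270) lies at chr18:24579881-24603817 on the minus strand. With TMAO, it was 26.6, 27.1 and 26.7 FPKM in low glucose and 29.9, 28.8 and 29.2 FPKM in high glucose. With vehicle, it was 27.3, 26.9 and 28.1 FPKM in low glucose and 28.9, 28.6 and 26.5 FPKM in high glucose. The TMAO groups did not overlap and the vehicle groups did, but the glucose log2 fold change with TMAO, 0.13 (SE 0.047, edgeR adjusted p = 0.154), did not pass, and neither did the interaction (0.097, SE 0.066, and 0.060 to 0.12 without 1 library).

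With vehicle alone, 0 of the 10 genes were called by edgeR against 3.3% of tested genes. At an unadjusted p under 0.05 there were 2 members and 13.0% of tested genes, and DESeq2 called 0 members. With TMAO, 0 of 10 were called against 3.64%. The unadjusted threshold was passed by 2 members and 14.7% of tested genes, and DESeq2 called 0 members. The 3 libraries of each glucose level did not overlap for 2 members with vehicle, Mt1 and Slc39a10, where 18.8% of tested genes did not overlap. With TMAO this held for 1 member, Slc39a6, against 18.4%. The median log2 fold change of the members in the averaged comparison was 0.0065, and that of all tested genes was 0.0011.

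**Figure D4:**
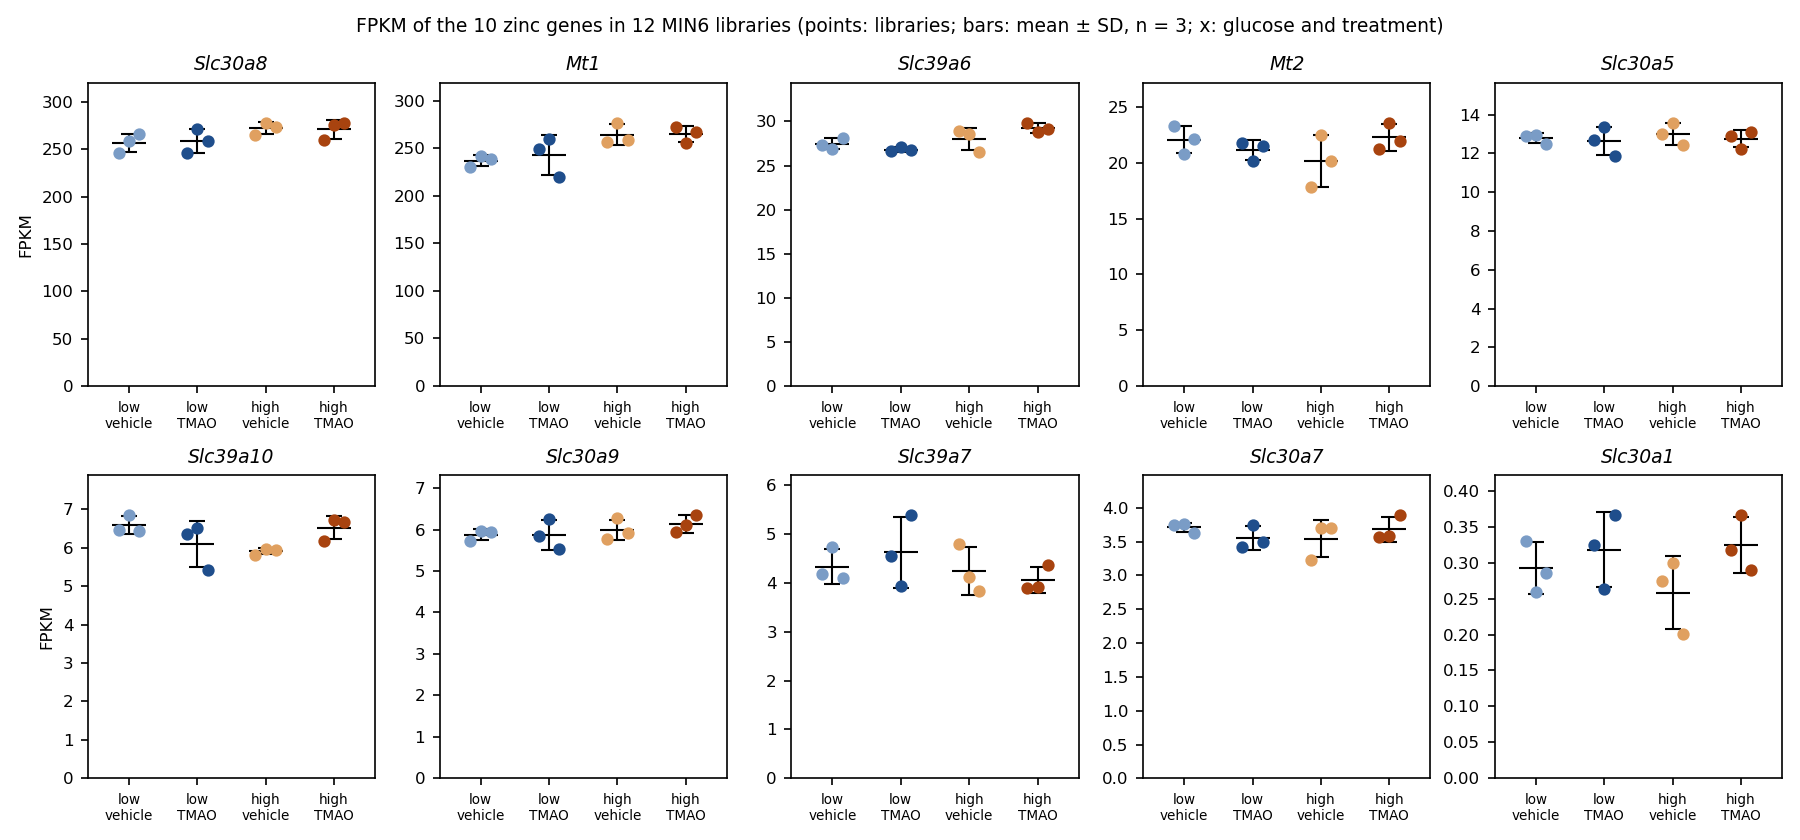
FPKM of each of the 10 genes (vertical axis from 0, its own scale per panel) in the 3 libraries of each condition (points), with the mean and SD. Mt1 runs from 219 to 277 FPKM with the high-glucose groups averaging above both low-glucose groups, and most other panels are flat within the spread of the replicates.

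The second comparison asked whether TMAO changed zinc-gene expression at either glucose level. None of the 10 genes passed. In low glucose 0 of 10 were called by edgeR, where 0.00616% of tested genes (1 gene) were called. An unadjusted p under 0.05 was reached by 0 members and 2.2% of tested genes, and DESeq2 called 0 members. In high glucose 0 of 10 were called, as were 0% of tested genes. An unadjusted p under 0.05 was reached by 1 member, Slc39a10, and by 5.35% of tested genes, and DESeq2 called 0 members. Averaged over glucose levels, 0 of 10 and 0% of tested genes were called, with 0 members and 3.62% of tested genes at an unadjusted p under 0.05 and 0 members by DESeq2.

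Intervals show how closely the TMAO effect was measured. At single glucose levels, the 95% intervals of the log2 fold change for the 9 members other than Slc30a1 reached from -0.26 (Mt2) to 0.32 (Slc39a7) in low glucose and from -0.31 (Slc39a7) to 0.35 (Mt2) in high glucose. Averaging over glucose levels gives narrower intervals but lets opposite differences cancel, as those of Slc39a10 do. For the 9 members other than Slc30a1, the averaged intervals all lay between -0.15 (Slc39a7) and 0.18 (Mt2). For Slc30a8 the interval was -0.061 to 0.066, and for Mt1 it was -0.054 to 0.091. At the depth of Slc30a1, by contrast, the averaged log2 fold change of 0.22 (SE 0.18) had an interval of -0.14 to 0.59, the widest of the 10. Counts of Slc30a1 were 33, 26 and 28 in low glucose with vehicle, 33, 27 and 36 in low glucose with TMAO, 27, 32 and 18 in high glucose with vehicle and 28, 43 and 26 in high glucose with TMAO. The count of 43 came from the library with the most fragments, and scaled to depth the highest values, 0.367 FPKM in low and 0.366 FPKM in high glucose with TMAO, were nearly the same. All groups overlapped.

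Slc39a10 (ENSMUSG00000025986, chr1:46807544-46892852, minus strand), encoding the plasma membrane importer ZIP10, had the smallest unadjusted p for TMAO. It stood at 5.81, 5.96 and 5.94 FPKM in high glucose with vehicle and at 6.17, 6.73 and 6.66 FPKM in high glucose with TMAO, and these groups did not overlap. In low glucose it stood at 6.46, 6.85 and 6.44 FPKM with vehicle and at 6.35, 6.52 and 5.42 FPKM with TMAO, and these groups overlapped. The log2 fold change for TMAO was 0.14 (SE 0.067, edgeR adjusted p = 0.91) in high glucose and -0.11 (SE 0.067) in low glucose. The low-glucose value was -0.034 without the third TMAO culture and -0.16 without the second. The difference of the 2, the interaction, was 0.25 with a 95% interval of 0.061 to 0.45 and did not pass either (edgeR unadjusted p = 0.0118, adjusted p = 1.00). In high glucose 11.1% of tested genes had non-overlapping TMAO and vehicle libraries, against 1 of the 10 members, and in low glucose 6.36%, against 0 of 10.

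No difference between conditions passed for the 4 transporters of internal compartments other than the granule. They are Slc30a5 (ENSMUSG00000021629, chr13:100802648-100833427, minus strand), Slc30a7 (ENSMUSG00000054414, chr3:115938973-116007406, minus strand), Slc30a9 (ENSMUSG00000029221, chr5:67306955-67358443, plus strand) and Slc39a7 (ENSMUSG00000024327, chr17:34028267-34031690, minus strand). Slc30a5 ranged over all 12 libraries from 11.9 to 13.6 FPKM, Slc30a7 from 3.23 to 3.90 FPKM and Slc30a9 from 5.54 to 6.36 FPKM. None had an unadjusted p under 0.05 in any comparison. Slc39a7 varied most among these 4 relative to its mean, from 3.84 to 5.39 FPKM, with both its lowest group mean (4.06 ± 0.265) and its highest (4.62 ± 0.734) under TMAO, in high and in low glucose respectively. Its glucose log2 fold change with TMAO was -0.19 (SE 0.11) and did not pass. It was -0.063 without the third culture of low glucose with TMAO and -0.29 without the second. The counting of Slc39a7 is uncertain, since 74.5% of the 50-base stretches of its transcripts also occur in Gm20427, a gene on the same strand with a mean of 22.1 counts against 212 on Slc39a7. Slc30a7 shares 15.3% of its 50-base stretches with other genes, including the pseudogene Gm6649 on the opposite strand, on which no fragment was counted.

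**Figure D5:**
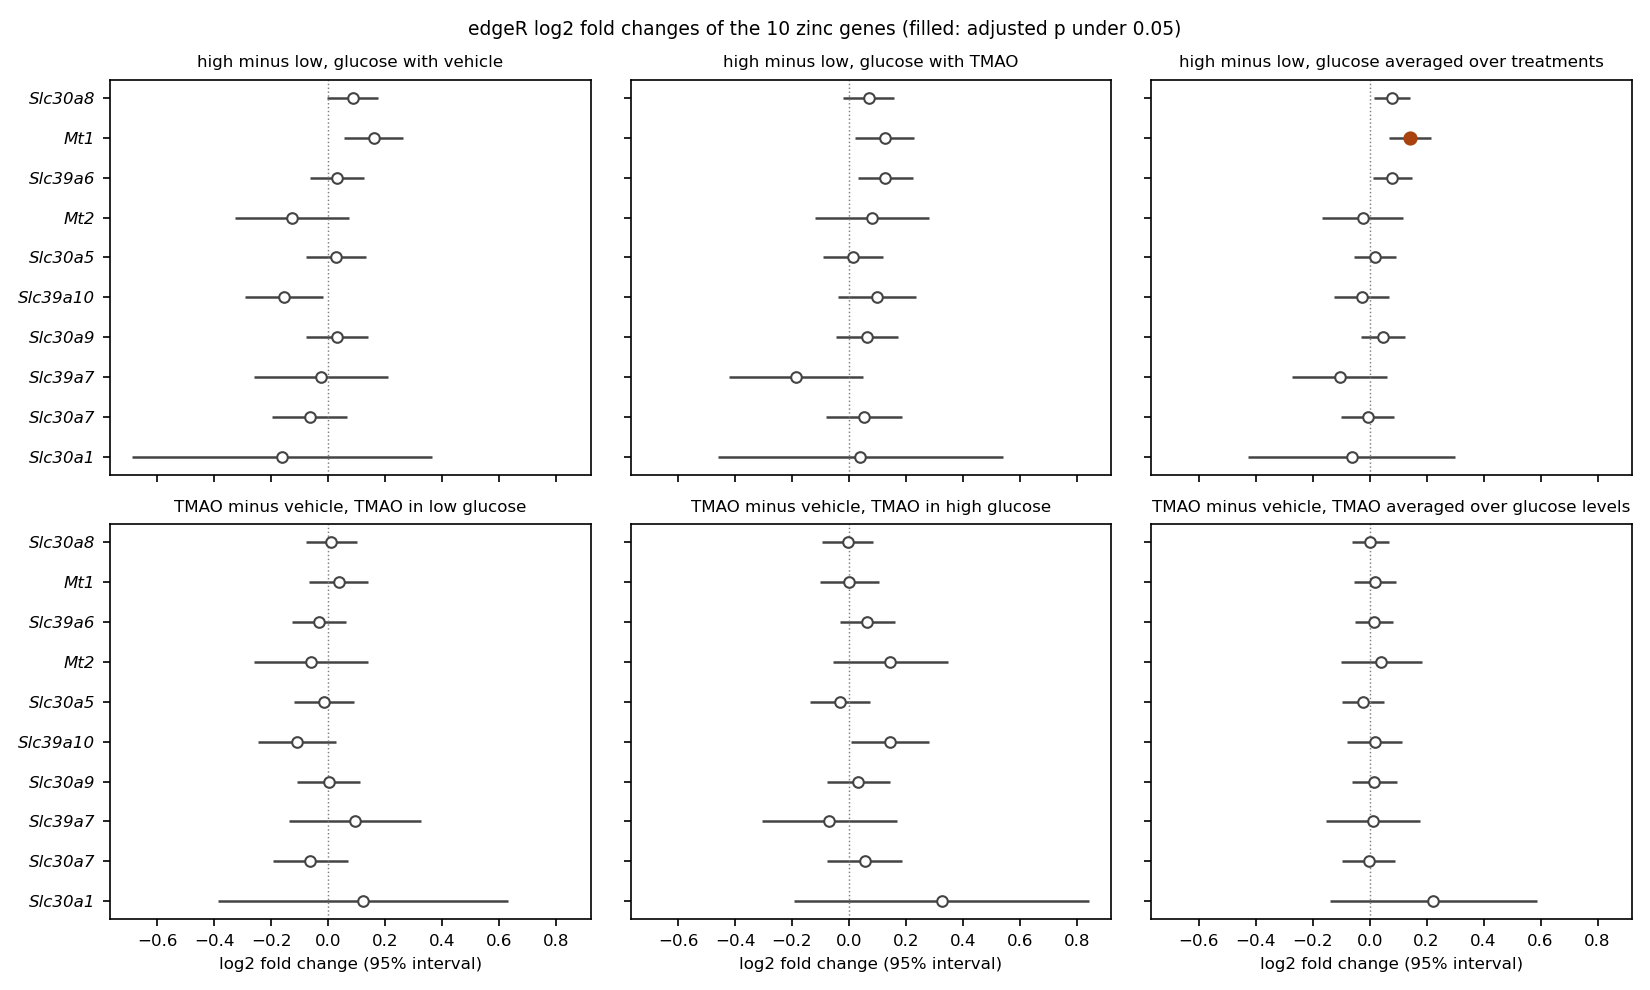
edgeR log2 fold changes with 95% intervals for the 10 genes, in the upper row for high against low glucose and in the lower row for TMAO against vehicle. Mt1 in the averaged glucose comparison (0.14) is the only filled point, meaning an adjusted p under 0.05, and Slc30a1 has the widest intervals.

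The interaction, which compares the TMAO effect between glucose levels, was called for 0 of 10 members and 0% of tested genes by edgeR. Only Slc39a10 among the members had an unadjusted p under 0.05, as did 3.36% of tested genes, and DESeq2 called 0 members. For Mt1 the interaction was -0.034 with a 95% interval of -0.18 to 0.11.

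Genes of the same pathway outside the 10 were examined next. Of 22 further zinc genes, 16 could be tested, and 1 was called for glucose averaged over treatments, a share close to the 8.19% of all tested genes. This was Slc39a2, encoding the plasma membrane importer ZIP2, which rose by a log2 fold change of 1.01 (SE 0.27, edgeR adjusted p = 0.0155). Its counts were 5, 15 and 10 in low glucose with vehicle, 9, 9 and 13 in low glucose with TMAO, 19, 25 and 16 in high glucose with vehicle and 11, 26 and 25 in high glucose with TMAO. With vehicle the glucose groups did not overlap, and with TMAO they did. Leaving out the first culture of low glucose with vehicle gave an adjusted p of 0.0592, and leaving out the third of high glucose with TMAO gave 0.0667. Slc39a2 shares 151 bases with Mettl17 on the same strand, where a mean of 320.2 fragments was counted against 15.2 on Slc39a2, so its level is uncertain.

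The 5 most abundant of these other genes were not called in any comparison. Mt3 averaged 111.6 ± 11.2 FPKM, Tmem163, a zinc transporter of vesicles, 30.7 ± 1.34, Slc39a3 13.1 ± 1, Slc39a1 11.9 ± 0.642 and Slc39a8 9.87 ± 0.566. Their averaged glucose log2 fold changes lay between -0.11 (Slc39a3, edgeR adjusted p = 0.166) and -0.013 (Mt3). For TMAO, 0 of the 16 were called by edgeR or DESeq2 at either glucose level, with 1 at an unadjusted p under 0.05 in low glucose, against 2.2% of tested genes, and 0 in high glucose, against 5.35%. Averaged over glucose levels, 0 of the 16 were called and 2, Mtf1 and Slc39a14, had an unadjusted p under 0.05, against 3.62% of tested genes. Mtf1, the zinc-sensing factor of the metallothionein genes, stood at 4.45 ± 0.198 FPKM. Both Mtf1 and Slc39a14 were named after their values were seen. For TMAO averaged over glucose levels, the log2 fold change of Mtf1 was -0.099 (SE 0.042, edgeR unadjusted p = 0.0249, adjusted p = 1.00). That of Slc39a14, another zinc importer gene, was 0.12 (SE 0.054, edgeR unadjusted p = 0.0294, adjusted p = 1.00).

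The genes whose levels most resembled 3 of the members were found by Pearson correlation of log2 CPM over the 12 libraries, among all tested genes. Slc30a8 was most like Thoc2 (r = 0.97), Dmxl2 (r = 0.97) and Dnajc13 (r = 0.96). Mt1 was most like 1700028E10Rik (r = 0.91), Tmem71 (r = 0.91) and Mrpl51 (r = 0.90), a mitochondrial ribosomal protein gene. Slc30a1 was most like the pseudogene Ppp1r2-ps4 (r = 0.88), AC154276.3 (r = 0.87) and 4930481A15Rik (r = 0.85). All points share their libraries and scaling, these are the highest of 16222 values, and for Slc30a1 they rest on at most 43 counts. The top match of Mt1, 1700028E10Rik, averaged only 0.177 FPKM.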

How the data were processed

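After 18 h with vehicle or 100 nM TMAO, MIN6 cells were stimulated with low (2.8 mM) or high (16.8 mM) glucose, for a time not given for these cultures in the sources used here; the concentrations come from the study's treatment scheme, the groups and replicate numbers from the labels. The labels give no glucose concentration. The authors deposited raw counts per gene and FPKM values, for which the submitters' processing notes list HISAT2 2.0.5, featureCounts 1.5.0-p3 and mm10. The strand setting is not given in the sources used here. Depth was 16793162 to 22340542 counts per library, so 3 counts are 0.134 to 0.179 CPM. No 2 replicates were as alike as draws from 1 library.

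Counts were tested with edgeR 4.0.16 (R 4.3.3): filterByExpr, TMM, robust dispersions and the robust quasi-likelihood F test on all 12 libraries with 4 condition means. P-values were adjusted by Benjamini-Hochberg over 16222 genes and called under 0.05, and they cover the spread between cultures of 1 line. The SE is the log2 fold change divided by the square root of F. Steps were tested on simulated data. FPKM served for levels and shares only. Overlaps and shared 50-base stretches used GENCODE M21. Alternatives were each library left out, no filter on low counts, the replicate number as a block, and DESeq2 1.42.0, by its size factors and by its Wald test. The members and gene lists were chosen with earlier results of these data known. Named genes were all 10 members, the 5 other zinc genes with the highest mean FPKM, any other zinc gene called, and the 3 genes most correlated with each of Slc30a8, Slc30a1 and Mt1, beside markers and genes that overlap those named. Mtf1 and Slc39a14 fall outside this rule and were named after their values were seen. Mt4 and Slc30a4, on which no fragment was counted, also fall outside it.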

Additional observations from a re-analysis of the deposited data

How the results depend on the processing

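Mt1 passed for glucose averaged over treatments under all 4 alternatives with all libraries and in all 12 fits that left out 1 library, with an adjusted p of 0.00168 to 0.0396 and a log2 fold change of 0.11 to 0.17 without 1 library. With vehicle alone the count of members called ranged from 0 to 1 over the fits without 1 library; leaving out replicate 3 of low glucose with TMAO brought Mt1 under the threshold (adjusted p = 0.0217). The replicate block, a fit with the replicate number as a term, called 2 members for glucose averaged over treatments instead of 1, since Slc30a8 then passed (log2 fold change 0.078, adjusted p = 0.0426), and changed no other member's call. The numbers were not taken to pair the cultures: over 18 same-number pairs the correlation of deviations ran from -0.038 to 0.21 with 2 over 0.1, though 10 of 12 libraries correlated best with their own number. Over all tested genes, the calls with no filter on low counts were 9 for TMAO averaged, 13 in high glucose, 7 in low glucose and 6 for the interaction, and the DESeq2 Wald test called 2, 3, 1 and 1; the cause was not tested. For glucose, the calls over all tested genes dropped from 536 to 328 with vehicle without replicate 3 of high glucose with vehicle and to 341 without replicate 2 of low glucose with vehicle, and from 591 to 344 with TMAO without replicate 3 of high glucose with TMAO and to 365 without replicate 1 of low glucose with TMAO. Without replicate 2 of low glucose with TMAO, Slc39a3 passed for glucose averaged (log2 fold change -0.15, adjusted p = 0.0272).

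Of 70 member log2 fold changes, 30 changed sign in at least 1 fit without a library, none of them past the threshold in the fit with all libraries. For TMAO averaged over glucose levels these ranges were Mt1 -0.0073 to 0.052, Slc30a7 -0.035 to 0.012, Slc30a8 -0.014 to 0.021, Slc30a9 -0.0060 to 0.037, Slc39a10 -0.0079 to 0.055, Slc39a6 -0.0031 to 0.028 and Slc39a7 -0.051 to 0.064. For TMAO in high glucose these ranges were Mt1 -0.018 to 0.036, Slc30a5 -0.061 to 0.0018, Slc30a7 -0.0070 to 0.088, Slc30a8 -0.024 to 0.026 and Slc39a7 -0.13 to 0.027. For TMAO in low glucose these ranges were Mt1 -0.017 to 0.10, Slc30a5 -0.057 to 0.024, Slc30a8 -0.025 to 0.047, Slc30a9 -0.046 to 0.041 and Slc39a7 -0.033 to 0.20. For the interaction these ranges were Mt1 -0.10 to 0.019, Slc30a5 -0.055 to 0.027, Slc30a8 -0.051 to 0.020 and Slc30a9 -0.0075 to 0.080. For glucose averaged over treatments these ranges were Mt2 -0.071 to 0.019, Slc30a1 -0.12 to 0.0077, Slc30a5 -0.0027 to 0.041 and Slc30a7 -0.027 to 0.026. For glucose with TMAO these ranges were Slc30a1 -0.077 to 0.15 and Slc30a5 -0.030 to 0.055. For glucose with vehicle these ranges were Slc30a5 -0.0075 to 0.056, Slc30a9 -0.0041 to 0.056 and Slc39a7 -0.12 to 0.042. With no filter, Slc30a9 for TMAO in low glucose was -0.00039 instead of 0.0009. The same alternatives were taken up for Mt3, Tmem163, Slc39a1, Slc39a2, Slc39a3 and Slc39a8, in the averaged glucose comparison only. This choice was made after seeing the data, and Mtf1 and Slc39a14 were left out of it. Signs changed for Mt3 (-0.084 to 0.020) and Slc39a1 (-0.045 to 0.0091), and the range for Slc39a2 was 0.85 to 1.21. Depth limits Slc30a1 most: with Mt2 and Slc39a7 it had the fewest counts and the widest intervals.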
